A study of Mus musculus with 60 samples.

Results

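Gene expression was compared between DIV10 and DIV5 (days in vitro) in primary mouse cortical cultures that carried scrambled (SC) siRNA and received no BDNF. The libraries were chosen by their siRNA, age and BDNF labels, and they are 7 of the 60 samples of the series, 3 at DIV10 (cultures 1, 3, and 6) and 4 at DIV5 (cultures 1, 2, 3, and 4). Cells came from the cerebral cortex of wild-type (WT) mouse embryos and were grown in a neurobasal medium with the Gem21 NeuroPlex supplement. All of these cultures carried the non-targeting control siRNA, so each change is one over time in its presence, and no culture without siRNA was compared. Other groups used beside them were SC siRNA with BDNF at 20 ng/ml (3 libraries at DIV10 and 4 at DIV5), paxillin siRNA without BDNF (4 at DIV10 and 6 at DIV5), SC siRNA at DIV3 (3), and cortex at E15 (2). The labels give only a culture number. The p-values therefore measure only the spread between libraries within groups, taken from all 48 libraries of the culture table, and that spread may be technical. The values are TPM, relative transcript abundances that sum to the same total in each library. Changes are differences between group means of log2(TPM + 1), so that for genes near 0 TPM they are smaller than the true log2 fold change.

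Cortical neurons placed in culture leave the cell cycle behind, extend axons and dendrites, and then form synapses, while a program of newborn neurons (Dcx, Sox11) gives way to synaptic scaffolds, channels, and kinases. Such cultures also hold progenitors, astrocytes, oligodendrocyte precursors, and a few microglia, which divide or mature on their own course. RNA-binding proteins such as Ptbp1, Ptbp2, and Srrm4 switch exons as neurons mature, and cholesterol synthesis supplies growing membranes.

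The genes of cell division fell nearly as a block, and their promoters are shown first because the same short words recur in them. Dividing cells use E2F sites (searched as TTTGGCGC, TTTCCCGC, TTTGCCGC, and TTTCGCGC), the cell cycle homology region or CHR (TTTGAA and TTCGAA), and CCAAT boxes bound by NF-Y, while PU.1 of myeloid cells binds GAGGAAGT. Each word was searched on both strands in windows of 250 bases before and 50 bases after a start site, taken from RefSeq on GRCm38.p6, and capitals mark the words found. Of the 38 cell cycle genes tested, 30 had a promoter in this set, with 33 promoters in all. CCAAT was in 30 of these 33 promoters (90.9%) against 37.4% of all 32851 promoters, CHR in 20 (60.6%) against 19.2%, and E2F in 6 (18.2%) against 2.26%. PU.1 was in 2 of 12 promoters of microglial genes (16.7%, against 3.20% of all promoters), one of them C1qc, whose window is at chr4:136892865-136893164 on the minus strand. The window of Top2a is at chr11:99024140-99024439 (minus strand), that of Rrm2 at chr12:24708004-24708303 (plus strand), and that of Uhrf1, 1 of its 2 promoters, at chr17:56304063-56304362 (plus strand). These matches are descriptions of the letters and say nothing of binding in these cells.
Top2a: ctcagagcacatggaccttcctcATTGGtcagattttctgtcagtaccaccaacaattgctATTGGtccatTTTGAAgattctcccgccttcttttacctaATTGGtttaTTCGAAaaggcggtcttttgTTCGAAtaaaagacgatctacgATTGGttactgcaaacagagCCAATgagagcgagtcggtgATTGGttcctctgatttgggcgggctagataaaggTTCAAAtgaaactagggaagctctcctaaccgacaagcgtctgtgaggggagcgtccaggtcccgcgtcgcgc
Rrm2: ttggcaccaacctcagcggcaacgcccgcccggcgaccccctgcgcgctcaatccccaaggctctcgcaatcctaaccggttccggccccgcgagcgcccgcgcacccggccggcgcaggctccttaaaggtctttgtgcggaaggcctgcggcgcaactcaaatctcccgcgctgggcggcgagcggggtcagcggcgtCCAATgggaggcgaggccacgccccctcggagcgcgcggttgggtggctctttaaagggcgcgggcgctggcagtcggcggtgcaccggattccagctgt
Uhrf1: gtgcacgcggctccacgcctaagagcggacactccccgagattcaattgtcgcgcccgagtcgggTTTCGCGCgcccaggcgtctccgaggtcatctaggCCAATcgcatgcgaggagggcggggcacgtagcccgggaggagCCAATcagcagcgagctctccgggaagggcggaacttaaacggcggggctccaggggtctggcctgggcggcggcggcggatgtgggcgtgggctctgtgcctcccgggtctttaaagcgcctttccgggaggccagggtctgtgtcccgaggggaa
C1qc: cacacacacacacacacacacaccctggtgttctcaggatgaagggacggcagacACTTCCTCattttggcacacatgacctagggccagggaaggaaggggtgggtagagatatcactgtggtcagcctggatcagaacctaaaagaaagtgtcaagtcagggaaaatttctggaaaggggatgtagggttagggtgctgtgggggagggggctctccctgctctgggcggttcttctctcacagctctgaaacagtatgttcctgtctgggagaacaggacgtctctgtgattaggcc

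Every library summed to 1000000 TPM, so the number of reads behind a value cannot be read from the table. The number of genes detected above 0 TPM was 21808 to 23354, and the 20 most abundant genes took 12.8% to 16.5% of the TPM. Pearson's r between pairs of the 7 libraries over all genes tested ranged from 0.886 to 0.988, and the lowest was between DIV10 culture 1 and DIV5 culture 3. The library numbers place DIV10 culture 1 (number 68) apart from the other 6 libraries (numbers 1 to 15), and no label says what these numbers mark. Both libraries of culture 3 had the lowest summed astrocyte list of their age. It was at 4036 TPM in DIV5 culture 3, against 10357 to 18890 TPM in the other DIV5 libraries. At DIV10 it was at 14363 TPM in culture 3, 20340 TPM in culture 6, and 31043 TPM in culture 1. Pan-neuronal genes summed to 1906 to 3963 TPM at DIV5 and 2482 to 4465 TPM at DIV10. Neuronal transcripts were thus present in every library, with glial markers beside them. The astrocyte sum was the higher of the pair in each library, but list sums do not give shares of cells. Pxn, which encodes paxillin (chr5:115491970-115555987 in GRCm38.p6), was at 13.1, 20.0, 12.4, and 16.4 TPM in DIV5 cultures 1 to 4 and at 8.99, 19.9, and 9.93 TPM in DIV10 cultures 1, 3, and 6. The groups overlapped, and the log2 difference of -0.30 ± 0.21 (SE) was not called (adjusted p = 0.31), but without DIV10 culture 3 it was -0.63 (adjusted p = 0.027).

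At DIV10, 820 of 14250 genes tested were called higher (5.75%) and 2731 lower (19.2%) than at DIV5, by limma with Benjamini-Hochberg adjustment at 0.05. All 3 DIV10 libraries were above all 4 DIV5 libraries for 855 genes (6.0%) and below all of them for 2743 genes (19.2%). Both held for 619 of the genes called higher and 2190 of those called lower. The median difference of all genes tested was -0.16, and after rescaling by median ratio size factors it was -0.02, with 1127 of 2513 calls higher (7.91% of all genes higher and 9.73% lower). The spread came from all 48 libraries of the culture table: in a fit of the 7 libraries alone only 11 genes were called, all higher, among them Kcnc4, Mal, and Col6a1, while 3595 had an unadjusted p under 0.05. Without DIV10 culture 1, whose library number lies apart, 1992 genes were called (521 higher). None of the 4 DIV5 libraries compared has a number near that of DIV10 culture 1. In all, 1345 calls (287 higher and 1058 lower) were kept without each library in turn. Fewer cells of a type and less RNA per cell cannot be told apart in these bulk libraries. The genes named below come from lists and a rule given with the processing.

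**Figure D1:**
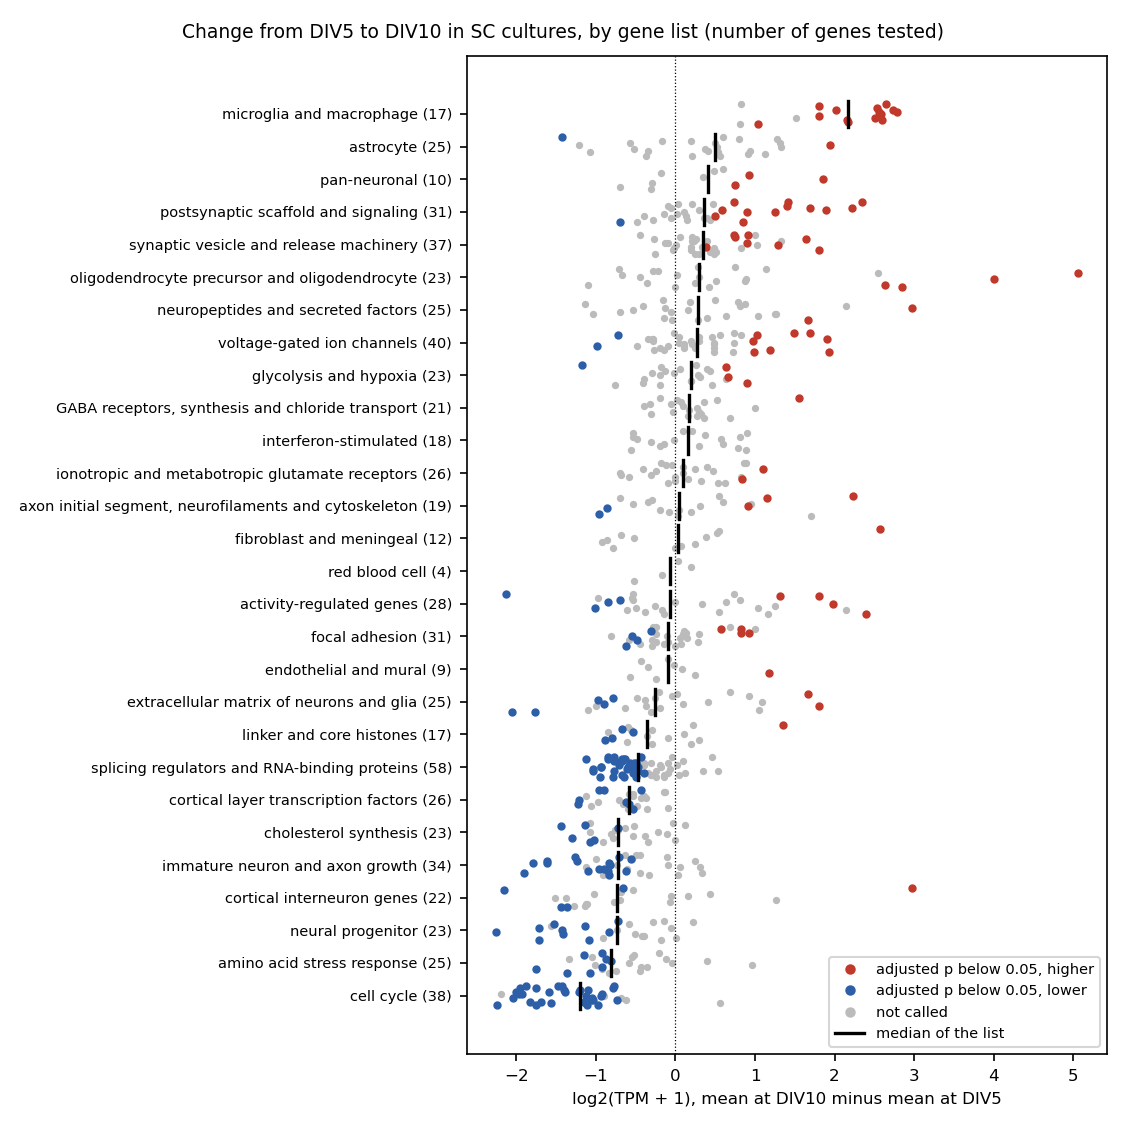
Each point is a gene of the named list, placed by its mean log2(TPM + 1) at DIV10 (3 SC libraries) minus that at DIV5 (4 SC libraries); red and blue points were called higher or lower by limma, grey points were not called, and black bars are list medians. The microglia list lies at the top with a median of 2.17 and 14 of 17 genes called higher (5.75% of all genes were). The cell cycle list lies at the bottom with a median of -1.20 and 34 of 38 called lower (19.2% of all genes were).

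Postsynaptic genes were the neuronal group with the most rises. Of 31 genes of the postsynaptic scaffold tested, 12 rose (38.7% against 5.75% of all genes) and 1 fell (3.23% against 19.2%). The median log2 difference was 0.36, against -0.16 for all genes. Camk2n1, an inhibitor of CaMKII, was at 273.5, 252, 160.3, and 233 TPM in DIV5 cultures 1 to 4 and at 1870, 1055, and 779.5 TPM in DIV10 cultures 1, 3, and 6. The lowest DIV10 library lay far above the highest DIV5 library, and the log2 difference was 2.35 ± 0.26 (SE, adjusted p = 1.1e-07). Camk2a, the kinase subunit itself, went from 28.6 to 142 TPM at DIV5 to 216 to 476 TPM at DIV10 (2.22, adjusted p = 9.5e-05). Dlg4, which encodes the scaffold PSD-95 (chr11:70017203-70045535), went from 154 to 254 TPM at DIV5 to 401 to 518 TPM at DIV10 (1.25, adjusted p = 2e-05). Ddn, a dendritic protein of the postsynaptic density, rose by 1.89 (adjusted p = 0.0014). The gene that fell was Homer1, a scaffold of metabotropic receptors, from 11.4 to 16.1 TPM to 6.11 to 9.70 TPM (-0.70, adjusted p = 0.044), and its call was lost without any one of 6 libraries (adjusted p up to 0.2) after rescaling (adjusted p = 0.12), and with no filter on low values (adjusted p = 0.073). Without DIV10 culture 1, 7 genes of the list were called higher.

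Presynaptic genes moved the same way in smaller number. Of 37 tested, 8 were higher (21.6% against 5.75% of all genes) and none lower, with a median of 0.35. Sncb, the neuronal beta-synuclein, was at 131.7, 112.5, 116, and 84.9 TPM at DIV5 and at 249, 307, and 255 TPM at DIV10 (1.29 ± 0.26, adjusted p = 0.00046). Vamp2, the vesicle SNARE, went from 1002 to 1300 TPM at DIV5 to 1792 to 2441 TPM at DIV10 (0.91, adjusted p = 0.0041). Snap25, its partner on the plasma membrane, was at 43.1, 32.3, 35.3, and 27.8 TPM at DIV5 and at 64.2, 57.9, and 53.5 TPM at DIV10. This difference of 0.75 ± 0.23 (adjusted p = 0.014) was no longer called without DIV10 culture 1 (adjusted p = 0.073) or DIV5 culture 4 (adjusted p = 0.053). Slc17a7, the vesicular glutamate transporter, rose by 1.81 (adjusted p = 0.0066), with DIV10 libraries at 1699, 417, and 854 TPM over 148 to 366 TPM at DIV5, and was not called without DIV10 culture 1 (adjusted p = 0.095). Only 3 genes of the list were called without DIV10 culture 1, and 4 without DIV5 culture 4.

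Receptors moved little by comparison. Among glutamate receptor genes 2 of 26 were called, both higher (7.69% against 5.75% of all genes). None was called higher without DIV10 culture 1 or DIV5 culture 3 or 4, and 1 was called lower without DIV5 culture 3. Among GABA receptor and chloride transport genes 1 of 21 was called, higher (4.76%), and none was called higher without DIV10 culture 1. Grin1, the obligatory NMDA receptor subunit, was at 105 to 245 TPM at DIV5 and 169 to 517 TPM at DIV10, a difference of 0.83 ± 0.45 that was not called (adjusted p = 0.18).

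Of 40 voltage-gated channel genes 8 were higher (20.0% against 5.75% of all genes) and 2 lower (4 higher without DIV10 culture 1, and none lower without DIV10 culture 1 or 3 or DIV5 culture 1 or after rescaling, and 1 lower without DIV5 culture 2 or 3). Kcnc4, a potassium channel of fast-repolarizing axons, was at 14.99, 12.4, 12.3, and 10.5 TPM at DIV5 and at 63.3, 38.2, and 52.9 TPM at DIV10 (1.93 ± 0.31, adjusted p = 3.2e-05). Genes of the axon initial segment and cytoskeleton were mixed, with 3 of 19 higher (15.8% against 5.75% of all genes) and 2 lower (10.5% against 19.2%). The higher count was 1 without DIV10 culture 1 and 5 without DIV10 culture 3. None was lower without DIV10 culture 1 or DIV5 culture 1 or 3 or after rescaling, and 1 was lower without DIV10 culture 3. The neuronal kinesin Kif5a of that list went from 224 to 471 TPM at DIV5 to 730.5, 728, and 693 TPM at DIV10, so that the 3 DIV10 libraries were nearly equal (1.15, adjusted p = 0.00043). Thy1, a surface protein of maturing projection neurons, rose by 1.86 (adjusted p = 0.0017), 1 of 3 called among 10 pan-neuronal genes (1 called without DIV5 culture 4). Cck, a neuropeptide, was at 61.5, 55.0, 53.8, and 31.6 TPM at DIV5 and at 953.6, 147, and 429 TPM at DIV10, a rise of 2.97 (adjusted p = 0.0014) that spanned a wide range at DIV10. It was 1 of 2 neuropeptide and secreted factor genes called of 25 (8.0% against 5.75% of all genes). For that list 7 were called without DIV10 culture 3 and 1 without DIV10 culture 1 or DIV5 culture 3 or 4. Among activity-regulated genes 4 of 28 were higher (14.3% against 5.75% of all genes) and 4 lower (14.3% against 19.2%). Their median was -0.07, with 13 differences above 0 and 15 below. Arc, the dendritic immediate early gene, went from 7.03 to 16.4 TPM to 167, 37.8, and 51.2 TPM (2.40, adjusted p = 0.00017). Ier2 (-1.01, adjusted p = 0.034) and Inhba (-2.13, adjusted p = 0.033) were called lower. Fos (-0.38) and Npas4 (-0.17) were not called (adjusted p = 0.74 and 0.83). The count of 4 higher was 1 without DIV10 culture 1 or DIV5 culture 4 and 2 without DIV5 culture 2 or 3, and the count of 4 lower was between 0 and 2 without any DIV10 library or DIV5 culture 1, 3, or 4, and 0 after rescaling.

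**Figure D2:**
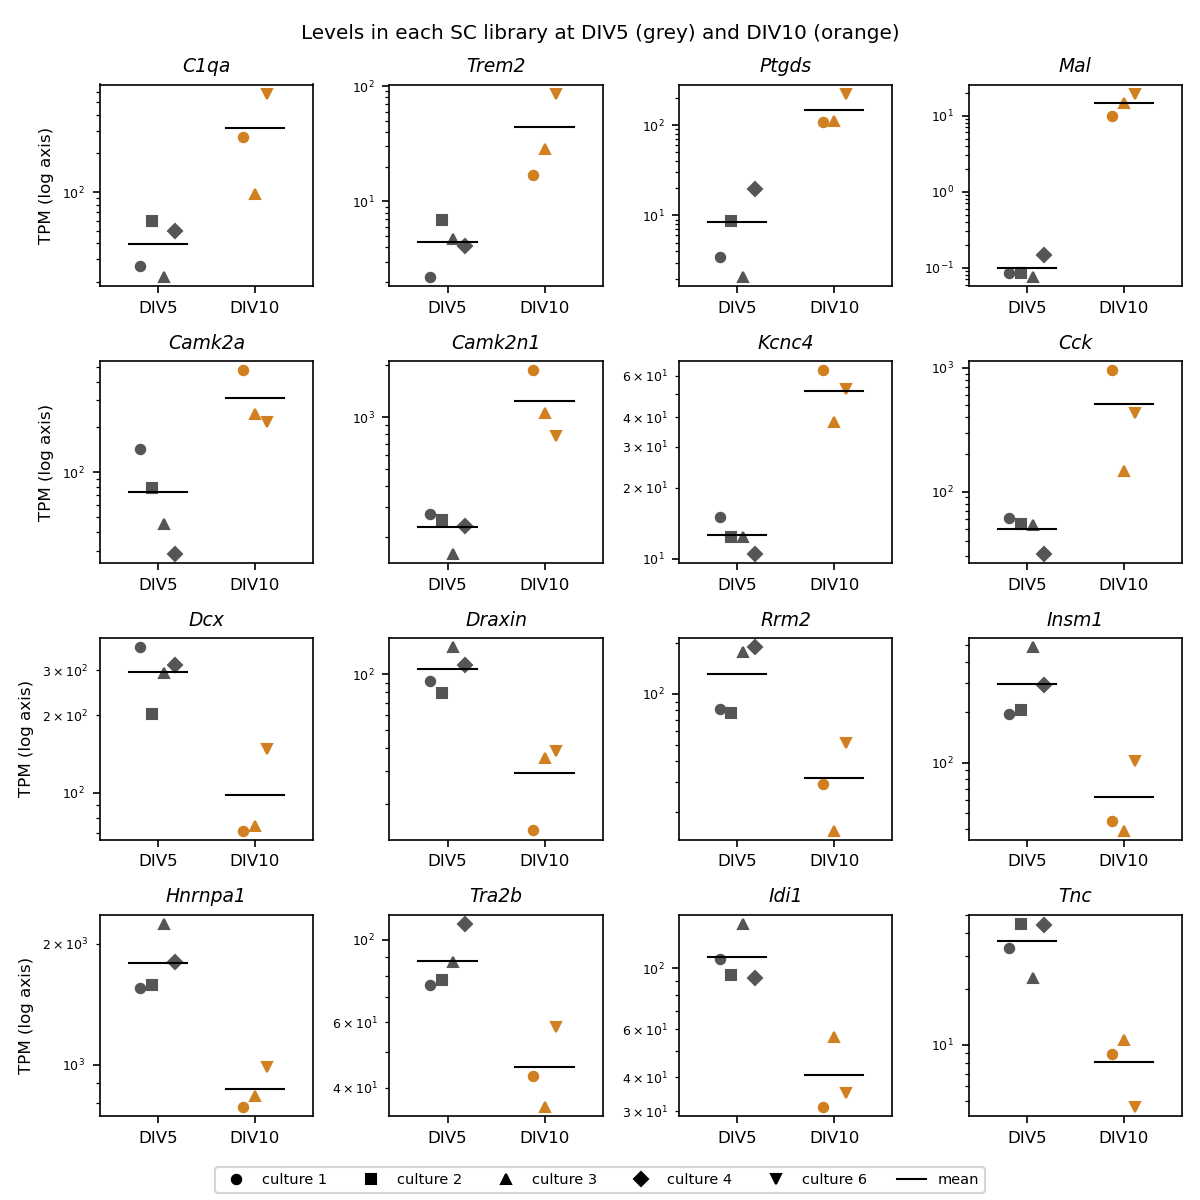
TPM on log axes of 16 genes in each SC library at DIV5 (grey) and DIV10 (orange), with symbols for the culture numbers and bars for the means. The 16 genes were picked for display, and each has its DIV10 libraries on one side of the DIV5 libraries. Of all genes tested, 6.0% lay fully above and 19.2% fully below. Mal was at 0.0754 to 0.147 TPM at DIV5 against 9.89 to 19.4 TPM at DIV10.

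Genes of newborn neurons fell in turn. Of 34 genes of immature neurons and axon growth 16 were lower (47.1% against 19.2% of all genes) and none higher, with a median of -0.72. Dcx, the microtubule protein of migrating neurons (chrX:143855842-143933396), was at 368, 202, 292, and 313 TPM at DIV5 and at 71.4, 74.6, and 148 TPM at DIV10 (-1.62 ± 0.29, adjusted p = 0.00011). Draxin, an axon guidance protein, went from 79.5 to 139.7 TPM to 14.4 to 38.3 TPM (-1.90, adjusted p = 0.00012). Sox11, a transcription factor of new neurons, fell by 1.79 (adjusted p = 8.2e-05), although DIV10 culture 6 at 609 TPM lay above the lowest DIV5 library at 591 TPM. Among projection neuron factors 8 of 26 fell (30.8% against 19.2% of all genes) and none rose, with all 26 differences below 0. Pou3f2, an upper layer factor, went from 244 to 418 TPM to 104 to 181 TPM (-1.21, adjusted p = 0.0022). Zbtb18 fell by 0.90 (adjusted p = 0.024) and Mapt, the microtubule protein tau, by 0.86 (adjusted p = 0.019), but both calls were lost without DIV10 culture 1, DIV5 culture 1, or DIV5 culture 3 (adjusted p between 0.058 and 0.33) and after rescaling (adjusted p = 0.076 and 0.065). Of 22 interneuron genes 4 fell (18.2%, near the 19.2% of all genes) and 1 rose, Cck, described above. The largest fall of the 4 was that of Dlx2, at 394 to 581 TPM at DIV5 and 160, 28.5, and 254 TPM at DIV10 (-2.16, adjusted p = 0.039). Its call was lost without each library but DIV10 culture 6 (adjusted p up to 0.29), after rescaling (0.068), and with no filter (0.071). No interneuron gene was called lower without DIV10 culture 1 or DIV5 culture 1 or after rescaling, and 1 was without DIV10 culture 3 or DIV5 culture 2 or 4. The count for immature neurons was 6 without DIV10 culture 1 and 10 without DIV5 culture 1 or 3 or after rescaling, and that for projection neuron factors was 2, 5, and 3 in the same order.

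Cell cycle genes were the list that fell most: 34 of 38 were lower (89.5% against 19.2% of all genes) and none higher. For 29 of the 38 all DIV10 libraries were below all DIV5 libraries, against 19.2% of all genes. Rrm2, the ribonucleotide reductase subunit made in S phase, was at 81.4, 77.1, 176, and 189.5 TPM at DIV5 and at 29.1, 15.5, and 50.8 TPM at DIV10 (-2.04 ± 0.38, adjusted p = 0.00021). Top2a, the topoisomerase of mitotic chromosomes, was at 34.9 to 92.8 TPM at DIV5 and at 20.5, 1.93, and 32.5 TPM at DIV10 (-2.25 ± 0.70, adjusted p = 0.016), and Uhrf1, a reader of newly replicated DNA, fell by 1.93 (adjusted p = 0.007). DIV10 culture 3 was the lowest library for these 3 genes. Without it, Top2a and Uhrf1 were not called (adjusted p = 0.23 and 0.1), Top2a was not called without DIV5 culture 4 either (adjusted p = 0.05), and 13 cell cycle genes were called. With both culture 3 libraries left out, 8 were called. Mki67, the proliferation marker, was at 59.5, 3.34, and 74.8 TPM at DIV10 against 80.2 to 179.9 TPM at DIV5, a difference of -2.20 ± 0.84 just short of the threshold (adjusted p = 0.051), and it was called without DIV10 culture 1 (0.044) or culture 6 (0.021). Pcna, the replication clamp, and Ccnd2, a cyclin of progenitors, fell by 0.78 and 1.40 (adjusted p = 0.0032 and 0.0063) and were called without each single library. Neither was called with both culture 3 libraries left out (adjusted p = 0.056 and 0.1).

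Progenitor genes fell with them, 11 of 23 lower (47.8% against 19.2% of all genes) and none higher. Insm1, a factor of intermediate progenitors and new neurons, was at 194, 206, 488, and 292 TPM at DIV5 and at 45.2, 39.5, and 101.8 TPM at DIV10 (-2.26 ± 0.50, adjusted p = 0.0011). Eomes, the marker of intermediate progenitors, went from 1.90 to 7.98 TPM to 0.266 to 0.989 TPM (-1.72, adjusted p = 0.0018). Hes5, the Notch target of radial glia, was at 118 to 208 TPM at DIV5 and at 62.2, 52.8, and 65.4 TPM at DIV10, a tight group (-1.43, adjusted p = 0.001). The number of progenitor genes called lower was between 5 and 7 without DIV10 culture 1 or 3 or DIV5 culture 2 or 4, and it was 5 after rescaling.

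Splicing regulators fell broadly and by modest amounts. Of 58 tested 33 were lower (56.9% against 19.2% of all genes) and none higher, with a median of -0.47. All DIV10 libraries were below all DIV5 libraries for 30 of the 58, against 19.2% of all genes. Hnrnpa1 (chr15:103239943-103246698), an abundant repressor of exon inclusion, was at 1552, 1580, 2244, and 1806 TPM at DIV5 and at 782.5, 835, and 986 TPM at DIV10 (-1.04 ± 0.16, adjusted p = 1.9e-05). Tra2b, an activator of exon inclusion, went from 75.6 to 110.5 TPM to 35.4 to 58.1 TPM (-0.95, adjusted p = 0.00023), and Syncrip from 104 to 173 TPM to 39.9 to 86.1 TPM (-1.13, adjusted p = 0.00078). Srsf3, an SR protein, fell by 1.04 (adjusted p = 0.0035, and 0.079 without DIV10 culture 3). U2af2, which reads the 3′ splice site, had 4 close values at DIV5 (140 to 159 TPM) and 3 at DIV10 (98.0 to 113 TPM), a difference of -0.47 ± 0.12 (adjusted p = 0.0043) that was not called after rescaling (-0.31, adjusted p = 0.11).

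The polypyrimidine tract proteins fell at both stages of their usual succession. Ptbp1, which represses neuronal exons in progenitors and glia, was at 139, 202, 136, and 209 TPM at DIV5 and at 98.9, 129, and 97.4 TPM at DIV10 (-0.64 ± 0.21, adjusted p = 0.022). Ptbp2, its counterpart in young neurons, went from 33.1 to 51.2 TPM to 22.4 to 32.8 TPM (-0.60, adjusted p = 0.0067, and 0.088 without DIV10 culture 1). Srrm4, the activator of neuronal microexons, went from 9.43 to 16.6 TPM to 6.07 to 9.19 TPM (-0.69, adjusted p = 0.035). The calls of Ptbp1 and Srrm4 were each lost without any one of 4 libraries (adjusted p up to 0.15) and after rescaling (adjusted p = 0.11 and 0.093), and that of Srrm4 with a pseudocount of 0.1 TPM (adjusted p = 0.05). Of the whole splicing list, 18 genes were called lower without DIV10 culture 1 and 19 after rescaling, when 2 were called higher.

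**Figure D3:**
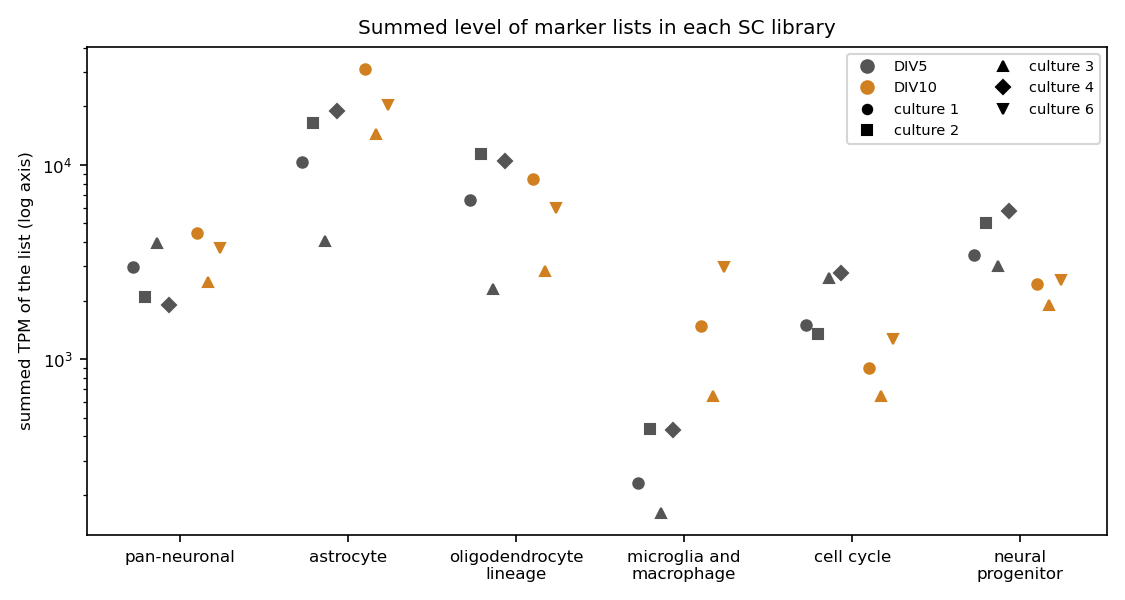
Summed TPM (log axis) of 6 lists of marker genes in each SC library at DIV5 (grey) and DIV10 (orange), with a symbol for each culture number. Microglial genes sum to 162 to 438 TPM at DIV5 and 647 to 2964 TPM at DIV10 without overlap, while the oligodendrocyte lineage list spans 2288 to 11342 TPM at DIV5 and 2831 to 8437 TPM at DIV10.

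Microglial genes had the highest median of the lists. Of 17 tested 14 were higher (82.4% against 5.75% of all genes) and none lower, with a median of 2.17. For 14 of the 17 all DIV10 libraries were above all DIV5 libraries, against 6.0% of all genes. C1qa (chr4:136895916-136898844), a complement subunit, was at 26.6, 59.4, 21.8, and 49.5 TPM at DIV5 and at 269, 96.8, and 583 TPM at DIV10 (2.74 ± 0.57, adjusted p = 0.00058). C1qc, its partner, rose by 2.65 (adjusted p = 0.00036). The receptors moved alike: Trem2, the lipid receptor, went from 2.21 to 6.86 TPM to 17.1, 28.6, and 86.1 TPM (2.79, adjusted p = 8.5e-05), Csf1r, the receptor for colony stimulating factor, rose by 2.16 (adjusted p = 0.00035), and Cx3cr1, the fractalkine receptor, by 2.58 (adjusted p = 0.0001). Tyrobp, the adaptor of Trem2, was at 1.36 to 4.62 TPM at DIV5 and 11.9 to 56.5 TPM at DIV10 (2.60, adjusted p = 3.1e-05). Gpnmb, a lysosomal glycoprotein of phagocytes, rose by 3.00 (adjusted p = 8.9e-06), and Spp1, osteopontin, by 3.53 (adjusted p = 0.0081, and 0.054 without DIV10 culture 6). DIV10 culture 6 held the highest value of each of these genes, and the list kept 14 calls after rescaling.

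Of 23 genes of the oligodendrocyte lineage 4 were higher (17.4% against 5.75% of all genes) and none lower. The median was 0.30, with 15 differences above 0 and 8 below. The lineage genes Olig2 (-0.71), Pdgfra (-0.44), and Sox10 (-0.22) were not called (adjusted p = 0.43, 0.76, and 0.86). The called members named next are myelin genes. Mobp, a myelin protein, was at most at 0.135 TPM in every DIV5 library and at 44.7, 6.13, and 142 TPM at DIV10 (5.06 ± 1.00, adjusted p = 0.00037). Mag, the myelin adhesion protein, was at 1.41 to 11.6 TPM at DIV5 and at 96.4, 28.4, and 184.6 TPM at DIV10 (4.0, adjusted p = 0.0067). Mbp, a main myelin protein, rose by 2.85 (adjusted p = 0.014) but was not called without DIV10 culture 6 (adjusted p = 0.063), and 2 genes of the list were called without that library. Outside the list, Mal, a proteolipid of myelin (chr2:127633226-127656695), rose from at most 0.147 TPM to 9.89, 14.6, and 19.4 TPM (3.78 ± 0.35, adjusted p = 5e-09). Ptgds, the prostaglandin D synthase of oligodendrocytes and meninges, went from 2.08 to 19.4 TPM to 108, 111, and 223 TPM (4.28, adjusted p = 0.00013).

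Astrocyte genes had few calls, 1 of 25 higher and 1 lower (4.0% each, against 5.75% and 19.2% of all genes). Their median was 0.50, with 17 differences above 0. The number called higher was 0 without DIV10 culture 1 or DIV5 culture 3, 2 without DIV5 culture 2 or 4, 4 without DIV10 culture 3, and 3 after rescaling, and 2 were called lower without DIV5 culture 3. Apoe, the lipid carrier of astrocytes and microglia, was at 2669, 4921, 1217, and 5428 TPM at DIV5 and at 14119, 9712, and 11782 TPM at DIV10 (1.94 ± 0.60, adjusted p = 0.015), a rise that was not called without DIV10 culture 1 (adjusted p = 0.069) or DIV5 culture 3 (adjusted p = 0.072). Gfap, the intermediate filament, was at 508 to 5053 TPM at DIV5 and at 4252, 519, and 1839 TPM at DIV10 (-0.52 ± 1.37, adjusted p = 0.82). Aqp4, the water channel, ranged from 37.2 to 1054 TPM at DIV5 and from 18.4 to 946 TPM at DIV10 (-1.07 ± 1.38, adjusted p = 0.62). Both low values at DIV10 were in culture 3, and without that library both differences were above 0. Of 9 endothelial genes 1 rose (11.1% against 5.75% of all genes), Egfl7 (1.17, adjusted p = 0.0033). Of 12 fibroblast genes 1 rose (8.33%), Col6a1 (2.57, adjusted p = 0.0047). Of 4 red blood cell genes none was called (limma, 0 at an unadjusted p under 0.05). Microglial, progenitor, and cell cycle sums moved with age beside the neuronal changes above (progenitor genes 3008 to 5782 TPM at DIV5 and 1901 to 2545 TPM at DIV10, cell cycle genes 1348 to 2786 TPM and 645 to 1270 TPM), and their part in those changes was not tested.

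Matrix genes were called in each direction about as often as all genes. Of 25 matrix genes 2 were higher (8.0% against 5.75% of all genes) and 5 lower (20.0% against 19.2%). Of 31 focal adhesion genes 4 were higher (12.9% against 5.75% of all genes) and 4 lower (12.9% against 19.2%). Tnc, the tenascin of progenitor and astrocyte matrix (chr4:63959785-64047015), was at 33.1, 44.7, 22.8, and 44.0 TPM at DIV5 and at 8.98, 10.7, and 4.62 TPM at DIV10 (-2.05 ± 0.31, adjusted p = 2e-05). Has3, a hyaluronan synthase, went from 41.4 to 112 TPM to 11.2 to 24.0 TPM (-1.77, adjusted p = 0.005), and Ncan, neurocan, fell by 0.97 (adjusted p = 0.014), a call lost without DIV10 culture 3 (0.14) or DIV5 culture 1 (0.053) and after rescaling (0.056). Has3 was not called with both culture 3 libraries left out (adjusted p = 0.11). Sparc, a glial matrix protein, rose from 51.9 to 182 TPM to 349 to 420.3 TPM (1.67, adjusted p = 0.0099, and 0.055 without DIV5 culture 3). The matrix counts were 3 lower without DIV10 culture 3 or DIV5 culture 1 and 2 after rescaling, and none higher without DIV5 culture 3 and 1 without any other library but DIV10 culture 3 and DIV5 culture 4. Ptk2, which encodes focal adhesion kinase, was at 8.99, 9.07, 10.4, and 9.59 TPM at DIV5 and at 5.38, 6.01, and 6.17 TPM at DIV10 (-0.62 ± 0.15, adjusted p = 0.0032), while Ptk2b, its relative Pyk2, went from 3.95 to 6.08 TPM to 8.48 to 9.69 TPM (0.82, adjusted p = 0.011). Crk, the adaptor that binds paxillin, fell by 0.55 (adjusted p = 0.0017). The focal adhesion counts were 1 higher and 2 lower without DIV10 culture 1, and 2 higher without DIV10 culture 6, and after rescaling 6 were higher and 2 lower.

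Of 23 cholesterol synthesis genes 6 were lower (26.1% against 19.2% of all genes) and none higher, with a median of -0.72 and 22 differences below 0. Idi1, the isopentenyl isomerase (chr13:8885606-8892396), was at 109, 94.3, 145, and 92.2 TPM at DIV5 and at 31.1, 56.2, and 34.9 TPM at DIV10 (-1.44 ± 0.34, adjusted p = 0.0024). Fdps, the next enzyme, went from 101 to 293 TPM to 45.0 to 71.4 TPM (-1.30, adjusted p = 0.0026). Sqle, the squalene epoxidase, fell by 1.02 (adjusted p = 0.024), and it was not called after rescaling (adjusted p = 0.088) or without DIV10 culture 3 (0.12), DIV5 culture 1 (0.058), or DIV5 culture 3 (0.061). The cholesterol count was 10 without DIV5 culture 4, 3 without DIV5 culture 1, 2 without DIV5 culture 3, and 2 after rescaling, when 9.73% of all genes were lower. The sterol element word TCACNCCAC was in 1 of 19 promoters of these genes (5.26% against 1.24% of all), and in none of the 3 called genes with a promoter. Of 25 genes of the amino acid stress response, Atf4 itself among them, 8 were lower (32% against 19.2% of all genes) and none higher, with a median of -0.81. After rescaling, 5 were lower. In SC cultures with BDNF none was called (median -0.02), and under paxillin siRNA 3 were higher and 8 lower (0.06). In the SC cultures without BDNF, the list summed to 1789, 4539, and 1887 TPM in DIV10 cultures 1, 3, and 6. The DIV5 libraries had sums of 2967 to 3957 TPM. Atf5 (-0.21) and Ddit3 (-0.52) were not called (adjusted p = 0.81 and 0.57). ATF4 words (TGATGNAAN and TTGCATCA) were in 7 of 27 promoters (25.9% against 3.96%), and in 2 of the 8 called genes. Aldh18a1, of proline synthesis, went from 45.2 to 64.7 TPM to 19.6, 42.3, and 21.5 TPM (-1.07, adjusted p = 0.0028). Shmt2, of mitochondrial one-carbon metabolism, was at 257 to 377 TPM at DIV5 and at 105, 229, and 101 TPM at DIV10 (-1.15, adjusted p = 0.012). Chac1 and Asns fell by 1.75 and 0.88 (adjusted p = 0.024 and 0.03). Shmt2, Chac1, and Asns were not called without DIV10 culture 1 or 6 (adjusted p between 0.07 and 0.13), and 3 genes of the list were called without either library. Chac1 and Asns were not called without DIV5 culture 1 (0.072 and 0.06) or after rescaling (0.053 and 0.096), nor Chac1 without DIV5 culture 2 (0.055), nor Asns without DIV5 culture 3 (0.093) or with no filter on low values (0.053). DIV10 culture 3 was the highest DIV10 library for these 4 genes.

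Glycolysis and hypoxia genes were called higher in 3 of 23 cases and lower in 1 (7 higher after rescaling, 5 without DIV10 culture 6, and 1 without DIV5 culture 3), and linker and core histone genes higher in 1 of 17 and lower in 4 (23.5%, and 2 lower without DIV10 culture 1). Ldhb, the lactate dehydrogenase subunit of oxidative cells, went from 101 to 123 TPM to 150.5 to 194 TPM (0.66 ± 0.13, adjusted p = 0.00042), and Egln3, a prolyl hydroxylase of the hypoxia response, from 3.88 to 12.2 TPM to 2.59 to 3.22 TPM (-1.17, adjusted p = 0.0041). Macroh2a1, a histone variant, was at 42.9, 52.0, 46.1, and 48.6 TPM at DIV5 and at 31.6, 34.7, and 30.5 TPM at DIV10 (-0.54 ± 0.11, adjusted p = 0.00051), and Macroh2a2 fell by 0.89 (adjusted p = 0.00039). B3gnt5, a glycosyltransferase of lactosylceramide chains, fell by 1.97 (adjusted p = 1.2e-05), among the 12 largest falls. Cox6b2, a cytochrome c oxidase subunit, was among the 12 largest rises (2.97, adjusted p = 0.0052), but its DIV10 values were 5.27, 150.9, and 5.27 TPM over 0.884 to 1.71 TPM at DIV5, and it was not called without DIV10 culture 3 (adjusted p = 0.15). No interferon-stimulated gene of 18 was called by limma, and 0 had an unadjusted p under 0.05, while 6 were called higher with culture number as a replicate block.

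**Figure D4:**
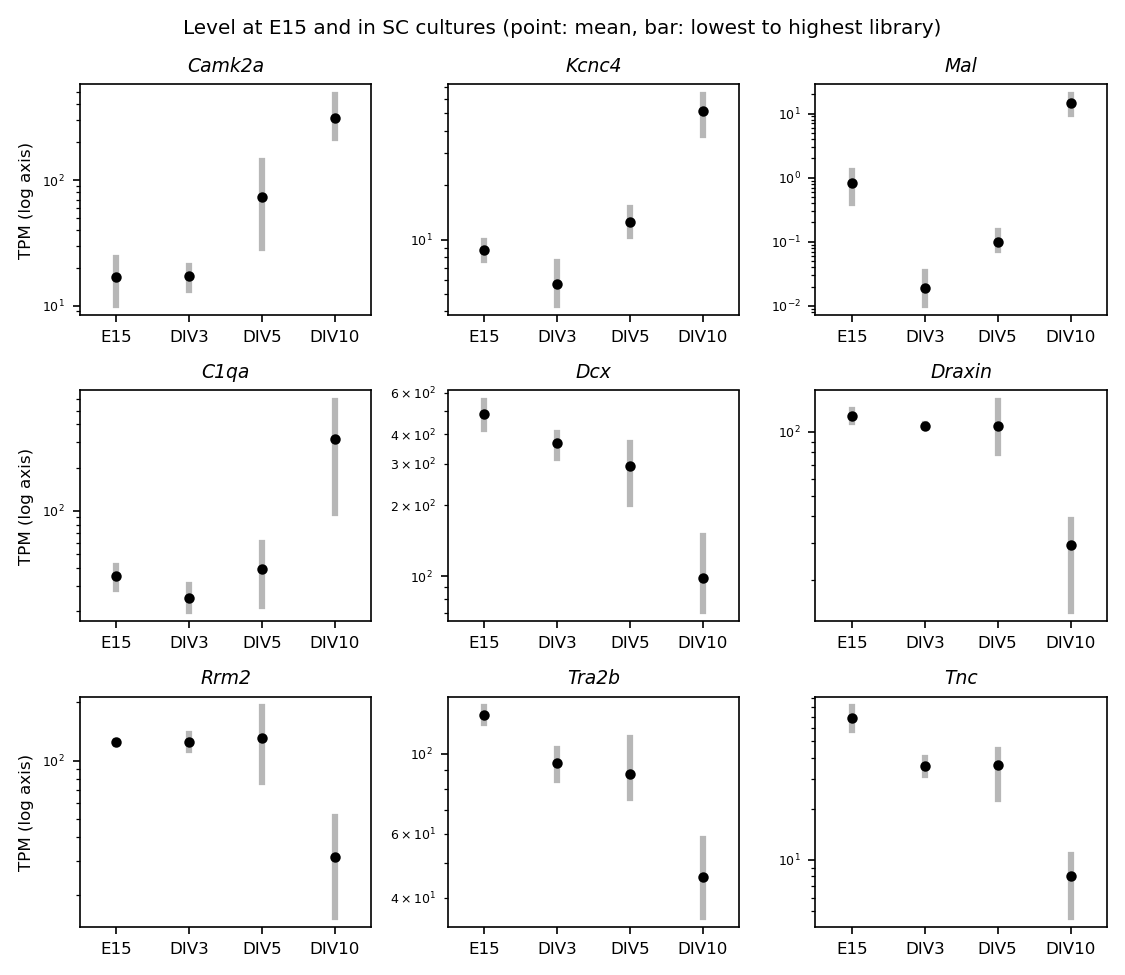
TPM (log axes) of 9 genes at E15 (2 libraries) and in SC cultures at DIV3 (3), DIV5 (4), and DIV10 (3), with points for means and bars from the lowest to the highest library. Rrm2 has means of 124 TPM at E15, 125 at DIV3, and 131 at DIV5 before 31.8 TPM at DIV10, and Kcnc4 has means of 8.75, 5.69, 12.6, and 51.5 TPM in the same order.

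Earlier stages placed these changes on a longer course, given here as levels without a test. Dcx had means of 488 TPM at E15, 367 TPM at DIV3, and 294 TPM at DIV5, and 98.2 TPM at DIV10. Draxin stayed between 79.5 and 139.7 TPM in the libraries of E15, DIV3, and DIV5, all above the 3 DIV10 libraries. Camk2a had means of 17.0 TPM at E15 and 17.1 TPM at DIV3, 73.8 TPM at DIV5, and 312 TPM at DIV10. C1qa was at 20.0 to 59.4 TPM in the libraries of E15, DIV3, and DIV5, below the DIV10 libraries. Mal was higher at E15 (0.395 and 1.25 TPM) than in any DIV3 or DIV5 library.

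The same ages were compared in cultures with BDNF, which are other libraries but carry many of the same culture numbers. Whether the same number means the same preparation is not given, so the comparisons may not be independent. With BDNF, 956 genes (6.71%) were higher and 2611 (18.3%) lower at DIV10. Of the 820 genes higher without BDNF, 813 had the same sign with BDNF and 561 were called, which is 68.4% of the calls without BDNF and 58.7% of those with it. Of the 2731 lower genes, 2708 had the same sign and 1964 were called, 71.9% and 75.2% of the calls. No gene was called for the difference between these changes (limma, 0 of 14250), and 233 had an unadjusted p under 0.05. Kcnc4 rose by 1.77 with BDNF (adjusted p = 9.5e-05), and Hnrnpa1 fell by 1.13 (adjusted p = 5.2e-06). With BDNF, 16 of 17 microglial genes were higher and 35 of 38 cell cycle genes lower. The amino acid stress list had no call with BDNF (median -0.02), and the cholesterol list had 1 gene lower (median -0.32). Chac1 and Col6a1 were at -0.33 and 0.04 with BDNF (adjusted p = 0.72 and 0.98) beside -1.75 and 2.57 without it, but their differences of 1.42 ± 0.82 and -2.53 ± 0.94 (SE) were not called (adjusted p = 1 for both).

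Libraries labelled paxillin siRNA are also other libraries, some with the same culture numbers as SC libraries. The difference between their changes and those of SC cultures was called for 821 genes (5.76%), 513 of them above 0. This count was between 102 and 2012 without single libraries: it fell to 137 without SC DIV10 culture 1, 207 without SC DIV10 culture 6, 108 without SC DIV5 culture 2, and 102 without SC DIV5 culture 4, and rose to 2012 without SC DIV10 culture 3 and 1655 without SC DIV5 culture 3. Of the paxillin siRNA libraries, it was 235, 442, 1677, and 1644 without DIV10 culture 1, 2, 10, and 11, and 369, 432, and 527 without DIV5 culture 1, 2, and 10. No gene was called in a fit of these 4 groups alone. Pxn itself was at 8.43 to 9.83 TPM at DIV5 and 11.5 to 18.8 TPM at DIV10 under the paxillin siRNA label, so at DIV10 its range overlapped that of the SC libraries. Of the 820 genes higher in SC cultures, 526 were also called higher under that label (64.1% of the SC calls and 22.7% of the others), and 6 were called lower. Of the 2731 lower genes, 1697 were called lower (62.1% and 38.4%), and 29 higher. All 17 microglial genes were higher (median 2.77), but neuronal lists had fewer rises and more falls than in SC cultures. Channel genes had 2 higher and 21 lower (-0.68), and presynaptic genes 2 and 14 (-0.42). Postsynaptic genes had 6 and 14 (-0.33), and pan-neuronal genes 1 and 5 (-0.73). Called differences were 14 of 40, 5 of 37, 4 of 31, and 0 of 10 in these 4 lists, with 1 postsynaptic gene above 0. Of all 14250 genes, 2318 were higher and 4414 lower under that label. Ptbp1 rose there, from 92.2 to 127.7 TPM at DIV5 to 122 to 273 TPM at DIV10, and its change differed from that in SC cultures by 1.36 ± 0.27 (adjusted p = 0.0087). Sqle fell from 207 to 595 TPM to 32.5 to 56.1 TPM, a change that differed from that of SC cultures by -2.0 ± 0.44 (adjusted p = 0.012), as did that of Fdps (-1.57, adjusted p = 0.027), and 15 of 23 cholesterol genes had a called difference, none above 0. The differences of Ptbp1, Sqle, and Hes5 (-1.85, adjusted p = 0.012) were called without each library in turn, and that of Fdps was lost in 3 of 17 such fits. The largest called differences were those of Angptl4 (3.44), Rnase1 (3.35), and Gbp6 (3.16) above 0 and Inhba (-3.17), Fst (-2.93), and Kcnv1 (-2.74) below 0, and each was lost without at least 5 of the 17 single libraries (adjusted p up to 0.15).

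**Figure D5:**
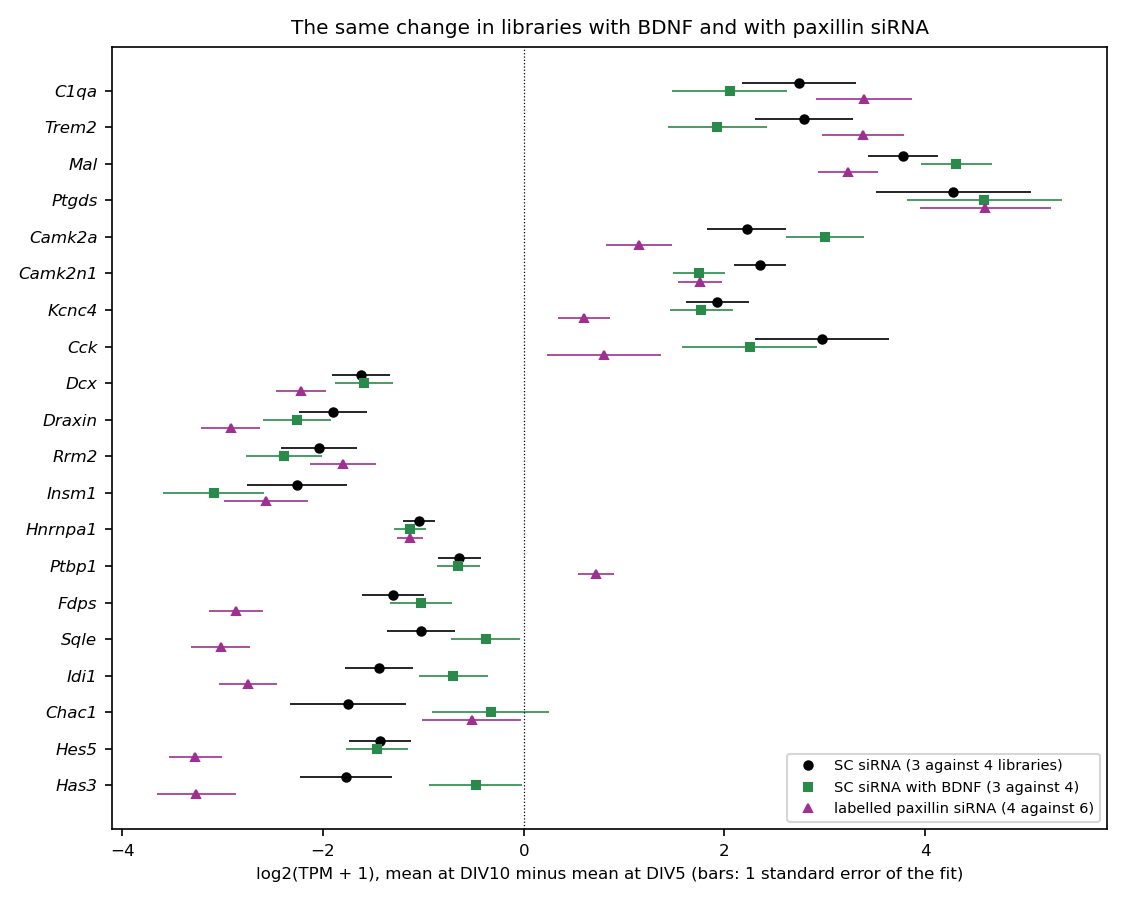
Mean log2(TPM + 1) at DIV10 minus DIV5 for 20 genes in SC cultures (black), SC cultures with BDNF (green), and libraries labelled paxillin siRNA (purple), with bars of 1 standard error. Most genes lie on the same side of 0 in all 3, while Ptbp1 is at -0.64, -0.65, and 0.72, and Sqle at -1.02, -0.38, and -3.02.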

How the data were processed

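RNA-seq of the culture table (48 libraries) was used. The authors aligned paired-end reads with STAR 2.7.10 and estimated abundance with RSEM 1.3.3 on GRCm38, and they deposited TPM per gene, which hold no read counts, so no counting interval was computed. The 14250 of 39756 genes that averaged 1 TPM or more over these libraries were fitted as log2(TPM + 1) with limma 3.58.1 (lmFit, eBayes with trend) in R 4.3.3, in one fit of all 48 libraries with a term per group, and were called at a Benjamini-Hochberg adjusted p under 0.05. Changes with BDNF and with paxillin siRNA were compared by interaction contrasts. Tables and figures used Python 3.11.15, numpy 2.4.6, pandas 2.3.3, and matplotlib 3.10.9, and the fit was tested on simulated data.

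The libraries and the 29 gene lists were chosen with earlier results of these data known, and 669 of 730 list genes were tested (13 mitochondrially encoded genes were not analysed here). Named genes were Pxn, key genes of each list, up to 4 called rises and falls per list, the 12 largest called rises and falls without overlap and with at least 5 TPM in the higher group, and 3 each way per interaction, and those carrying a result were printed. Alternatives were a pseudocount of 0.1 TPM, no filter, median ratio size factors, a fit of only the groups compared, culture number as a block, each library left out, and, chosen after seeing the data, both SC libraries of culture 3 left out. Coordinates are those of GRCm38.p6. Only cultures 1 and 3 occur at both ages, so samples were not treated as paired. The correlations of their deviations were 0.272 and 0.42, against -0.542 to 0.336 for pairs of unlike number. That of culture 3 was the highest, and whether its libraries share a preparation was not tested. Some genes are not reported here.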

Additional observations from a re-analysis of the deposited data

Results flagged for a closer look

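Among 82 genes examined for a DIV5 library far from the other 3, 4 had a gap above Dixon's critical value for 4 samples, where chance gives about 1 in 20. The gap as a share of the range was 0.834 for Fdps, 0.960 for Macroh2a2, 0.875 for Inhba, and 0.980 for Fst, and each time DIV5 culture 3 was the high library.

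The DIV10 minus DIV5 change differed between paxillin siRNA and SC libraries (limma interaction, adjusted p under 0.05) for 15 named genes. The difference was above 0 for Angptl4 (3.44), Rnase1 (3.35), Gbp6 (3.16), Ptbp1 (1.36), Ldhb (0.57), U2af2 (0.53), and Macroh2a1 (0.53). It was below 0 for Inhba (-3.17), Fst (-2.93), Kcnv1 (-2.74), Sqle (-2.0), Hes5 (-1.85), Fdps (-1.57), Kcnc4 (-1.33), and Egfl7 (-1.29). Without each of 17 libraries in turn, Hes5, Ptbp1, and Sqle kept their calls, and the other 12 genes lost theirs in 3 to 13 of the fits.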

How the results depend on the processing

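The 3551 calls between DIV10 and DIV5 became 11 in a fit of only the 7 libraries and 1992 to 3269 without single libraries, and the 215 calls within the lists became 2 in that fit, 124 to 195 without single libraries, and 140 without both SC libraries of culture 3. Of 84 named genes, 71 lost their call in the fit of 7 libraries and 12 after rescaling. The difference with BDNF had 0 calls in every alternative but 1, with 0 to 1 without single libraries. The 821 differences with paxillin siRNA became 517 with no filter, 0 in a fit of only the 4 groups, 2357 without both SC libraries of culture 3, and 102 to 2012 without single libraries. Some uncalled genes changed sign: over the fits without single libraries Gfap ranged from -1.25 to 0.29 and Aqp4 from -2.40 to 0.40 (both highest without DIV10 culture 3), Gbp6 from -1.05 to 0.22 (highest without DIV5 culture 4), and Kcnv1 from -0.06 (without DIV10 culture 1) to 1.19. The cause was not tested. TPM hold no read counts, so the counting error of low genes cannot be given.

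With culture number as a replicate block, which leaves DIV10 culture 6 without a partner, 4940 genes were called (1429 higher), as were 272 list genes and 1837 differences with paxillin siRNA. The difference with BDNF still had 0 calls. Counts of lists that moved by over 1.5 times under the block were, for genes called higher, 6 interferon-stimulated, 7 astrocyte, 7 glycolysis and hypoxia, 3 GABA, 1 glutamate receptor, 1 splicing, and 0 histone genes, and, for genes called lower, 17 projection neuron factors, 10 cholesterol, 8 interneuron, 5 axon initial segment and cytoskeleton, 3 pan-neuronal, and 2 glycolysis and hypoxia genes. Gfap (0.01) and Gbp6 (0.30) changed sign under the block, Ptbp1 lost its call (adjusted p = 0.093), and Mki67 gained one (adjusted p = 0.022).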
